A study of Mus musculus with 11 samples.

Results

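The 10 stem cell ageing genes described here are Selp, Vwf, Clu, Aldh1a1, Gstm2, Sult1a1, Neo1, Gda, Cpne8 and Nupr1, all known to rise in old haematopoietic stem cells of mice. They were taken by symbol, 10 of the 55291 gene symbols in the count table. The RNA came from LSK cells (negative for lineage markers, positive for cKit and Sca-1), the sorted bone marrow fraction that holds stem cells and multipotent progenitors. By their labels the mice were 4 carrying the Phf6 R274X transgene (labelled Phf6R274X Tg, here Tg) and 3 with Phf6 knocked out (KO), and 4 wild-type mice (WT). All had the strain label C57BL/6, each library was made from total RNA of 1 mouse per the labels, and none carried an age, a treatment or a batch label. The sources used here do not name the promoter that drives the transgene or the way Phf6 was knocked out. Phf6 encodes a chromatin protein, lies on the X chromosome and carries mutations in human leukaemias, and the X of R274X stands for a stop codon.

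Old stem cell populations are known for being larger, for making fewer lymphoid cells and for favouring the myeloid and platelet lineages. The 10 genes come from the transcripts by which old and young mouse stem cells are usually told apart. Some encode proteins of platelets and blood vessel lining (Selp, Vwf), some enzymes that handle aldehydes, electrophiles, phenols or purines (Aldh1a1, Gstm2, Sult1a1, Gda), and the others a secreted chaperone (Clu), a guidance receptor (Neo1), a membrane-binding protein (Cpne8) and a nuclear stress protein (Nupr1). In sorted bulk RNA a change in the share of cells that express a gene and a change in RNA per cell cannot be told apart.

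Libraries held 20990446 to 45632018 counts, so that 3 counts, the limit that a count of 0 allows, stood for 0.0656 to 0.144 CPM (counts divided by library size and by TMM factors, which adjust for RNA composition). This limit covers counting error only. Kit lay between 579.3 and 883.9 CPM and Ly6a, which encodes Sca-1, between 20.04 and 40.6 CPM. The neutrophil marker Ly6g stayed at or below 0.400 CPM and the T cell marker Cd3e at or below 2.00 CPM, but other markers of mature cells were detected. The summed level of 10 mature neutrophil genes was 61.3 to 706.4 CPM in Tg, 39.4 to 75.0 in KO and 20.8 to 115.0 in WT. S100a8 alone averaged 236.0 CPM of it in Tg, 21.3 in KO and 18.3 in WT. By fold change 7 of those 10 genes lay above WT in Tg and 3 below, and 7 above KO and 3 below. That of 10 T and NK cell genes was 127.9 to 265.5 CPM in Tg, 99.8 to 117.2 in KO and 95.7 to 122.3 in WT, and that of 10 B cell genes 38.4 to 122.2 CPM in Tg, 264.4 to 423.9 in KO and 108.0 to 971.7 in WT. Of the T and NK cell sum, Nkg7 alone averaged 186.2 CPM in Tg, 71.5 in KO and 72.8 in WT. By fold change 8 of those 10 genes lay below WT in Tg (median log2 fold change -1.69) and 8 below KO (median -2.08). Phf6 averaged 220.1 ± 46.1 CPM in Tg, 19.4 ± 4.33 in KO and 121.2 ± 14.2 in WT (SD, n = 4, 3 and 4). Xist, a transcript of female cells, and 4 Y-linked genes (Ddx3y, Uty, Kdm5d, Eif2s3y) were both present, with more than 100 counts each for Xist and for the Y-linked sum, in 0 of 4 Tg, 1 of 3 KO (replicate 1) and 3 of 4 WT libraries (replicates 1, 2 and 4). Both kinds of transcript in 1 library go against the label of 1 mouse per library, so n counts libraries here. Tg libraries held 1 to 12 Xist counts, against 1226 to 1490 in KO and 1130 to 1644 in WT. Sex, as far as these genes show it, therefore differed between Tg and the other genotypes. Its part in any difference below was not tested. Xist was near absent in every Tg library and present in every KO and WT library. Near absence of Xist and the transgene therefore cannot be told apart in any fit. A fit with the Y-linked level as a covariate was run, which does not adjust for Xist. A fit without the 4 libraries that held both kinds of transcript was also run. It left KO replicates 2 and 3 and WT replicate 3, with 58, 1 and 2 Y-linked counts, against 2014 or more in Tg. Sex and the transgene cannot be told apart in that fit either.

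All 10 genes passed the filter on low counts, and 17183 genes were tested in one fit by edgeR's quasi-likelihood test. Adjusted p-values are Benjamini-Hochberg values over all 17183, and a gene was called at an adjusted p under 0.05. Log2 fold changes are given with their standard error (SE). The p-values set each difference against the spread between these libraries, taken as independent. The labels do not say whether mice of a genotype shared a litter or cage.

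By mean level, Tg was highest, WT between and KO lowest for every one of the 10 genes except Gda (lowest in WT) and Neo1 (highest in WT). All 10 genes were above KO in Tg by fitted fold change, with a median log2 fold change of 2.18, against 0.01 over all genes tested. Of them 6 rose in Tg against KO (Clu, Aldh1a1, Gstm2, Sult1a1, Gda and Cpne8), where 2.63% of all genes tested were called higher and 3.06% lower. All 10 had an unadjusted p under 0.05, against 10.7% of all genes in that direction. The groups did not overlap for 8 of 10, against 9.8% of all genes tested for higher levels in Tg. Against WT, 9 of 10 lay above in Tg (median log2 fold change 0.81, against 0.01 over all genes) and 1 rose, Gda, where 2.54% of all genes were called higher and 2.39% lower. Tg and WT did not overlap for 2 of 10, Clu and Gda, against 4.5% of all genes for higher levels in Tg. Against WT, 9 of 10 lay below in KO (median -1.06, against -0.01 over all genes), and none passed in edgeR, where 0.0233% of all genes were called in either direction. At an unadjusted p under 0.05, 5 of 10 lay below WT in KO and 6 of 10 above WT in Tg, against 3.75% and 10.9% of all genes in those directions. KO lay below WT without overlap for 5 of 10 (Clu, Gstm2, Sult1a1, Neo1 and Cpne8), against 3.71% of all genes. In KO against WT, DESeq2 called 2 of the 10 lower, Gstm2 and Sult1a1, where it called 47 of 16823 genes lower, and limma-voom called 0 of the 10 and 1 of 17183 genes lower. The comparisons against WT share the 4 WT libraries, and Tg against KO shares a genotype with each of them. The 10 genes were chosen with earlier results of these data known, so the shares set beside all genes describe these genes and carry no test.

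The count of 6 in Tg against KO moved with single KO libraries, and so did the calls over all genes, of which 452 of 17183 were higher. Without KO replicate 2 the count was 2 (Gstm2 and Gda), with 109 of 17752 genes called higher. Without KO replicate 3 it was 4, with 150 of 17826. Without the libraries that held both Xist and Y-linked reads it was 4 (Selp, Clu, Gstm2 and Gda), with 119 of 18453 genes called higher. With the Y-linked level as a covariate it was 2 (Gstm2 and Gda), with 248 of 17183. DESeq2 called 8 of the 10 higher in Tg against KO, adding Selp and Neo1, where it called 963 of 17156 genes higher.

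**Figure D1:**
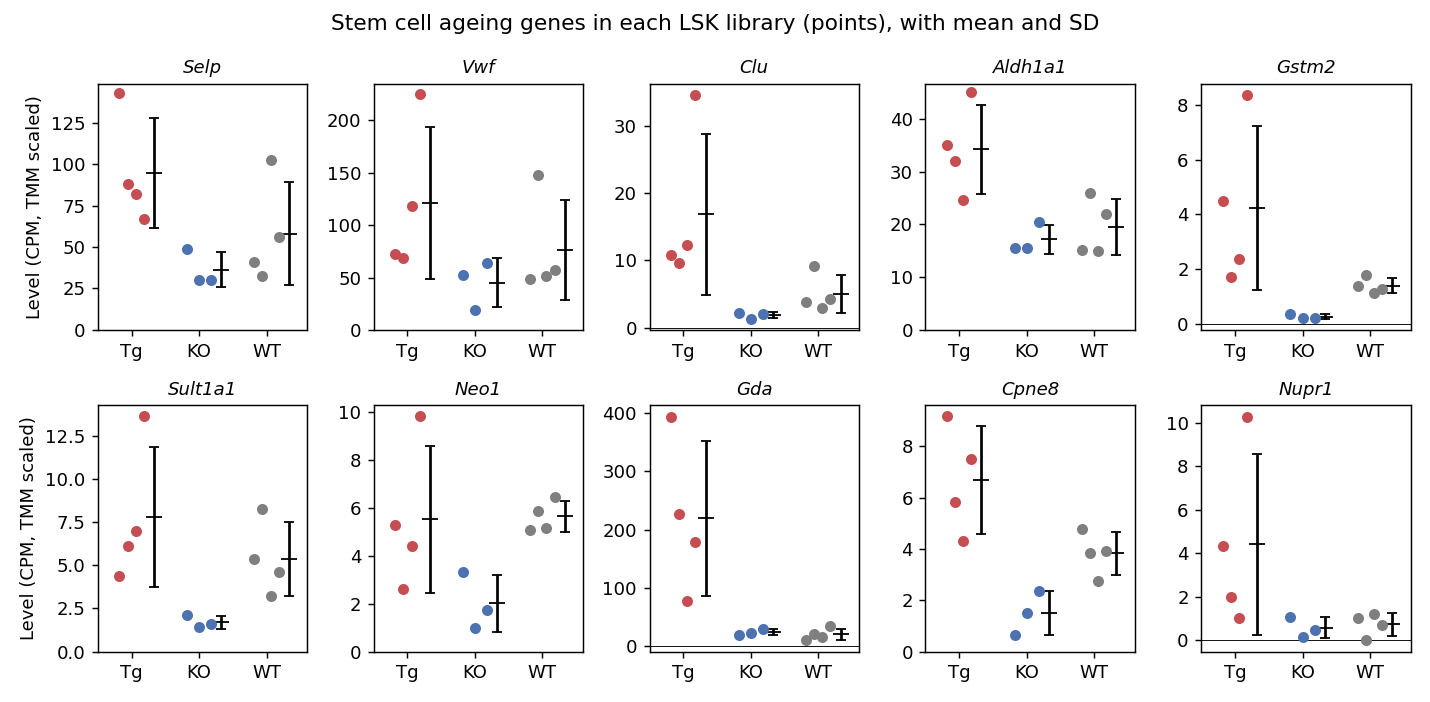
Level of each of the 10 genes (vertical axes, CPM with TMM scaling, linear from 0) in every library, with Tg, KO and WT from left to right; bars give the mean and SD (n = 4, 3 and 4). Selp, Vwf, Clu, Aldh1a1, Gstm2, Sult1a1 and Cpne8 separate all Tg libraries from all KO libraries, and Gda separates all Tg libraries (77.1 to 393.1 CPM) from all others.

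Gda encodes guanine deaminase, which turns guanine into xanthine in purine breakdown (chromosome 19, 21391307 to 21473445, minus strand, GRCm38). In replicate order, Gda stood at 393.1, 227.2, 77.1 and 177.9 CPM in Tg, 19.7, 23.4 and 29.9 CPM in KO, and 10.8, 21.1, 15.4 and 34.4 CPM in WT. Every Tg library thus lay above every other library, while KO lay within the WT range. Gda rose by 3.43 on the log2 scale in Tg against WT (SE 0.48, adjusted p = 0.00584), and by 3.17 against KO (SE 0.53, adjusted p = 0.00784). In KO against WT it stood at 0.26 on that scale (SE 0.48, adjusted p = 0.940), with an approximate 95% interval of -0.79 to 1.31. Leaving out any 1 library kept both calls, with log2 fold changes of 2.99 to 3.79 against WT and 2.73 to 3.45 against KO. Without the libraries that held both Xist and Y-linked reads, which left 1 WT library, the log2 fold change against WT was 3.83 and the call was lost (adjusted p = 0.249).

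Marker genes of granulocyte-monocyte progenitors were also high in Tg. The summed level of 12 of them (among them Mpo, Elane and Prtn3, which encode enzymes of neutrophil granules) was 25011, 22560, 5093 and 10142 CPM in Tg replicates 1 to 4, 4071 to 5258 CPM in KO and 1506 to 3764 CPM in WT. The Tg libraries stood in the same order for this sum as for Gda, with replicate 1 highest and replicate 3 lowest. Tg replicate 3 overlapped KO in the sum and not in Gda. Mpo alone held 3451 CPM of the sum in Tg replicate 3 and 2919 to 3833 CPM in KO. Taken singly, 8 of the 12 genes lay above KO in Tg without overlap and 1 below. Of 17183 genes tested, 1684 lay above and 1896 below in that way. Of the 12 genes, 10 rose in Tg against WT and 3 against KO (Prtn3, Ctsg and Cebpe), where 2.54% and 2.63% of all genes tested were called higher. The part of such cells in the level of Gda was not tested.

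**Figure D2:**
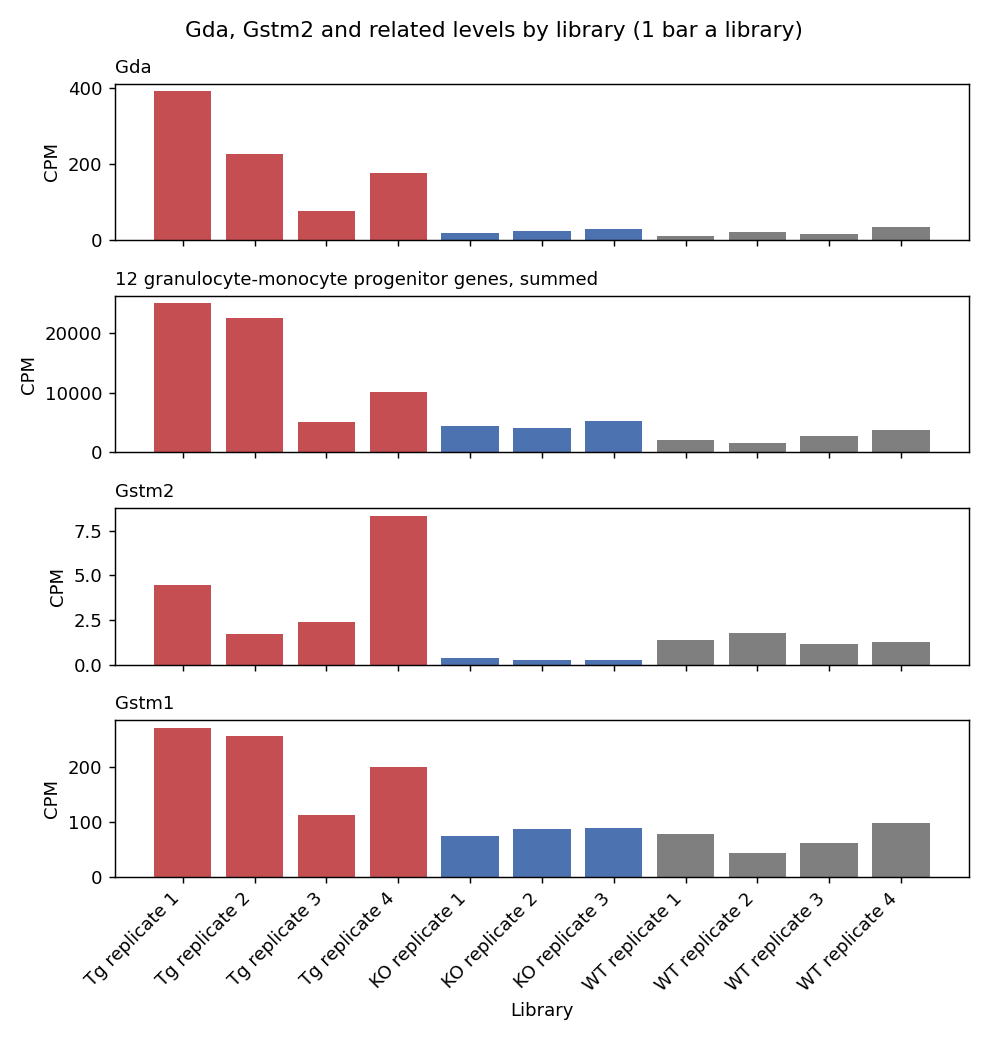
Level in each library (1 bar a library, CPM, vertical axes from 0) of Gda, of 12 granulocyte-monocyte progenitor genes summed, of Gstm2 and of its paralogue Gstm1. Gda and the progenitor sum are highest in Tg replicate 1 and lowest among Tg in replicate 3; Gstm2 is highest in Tg replicate 4 (8.36 CPM) and lowest in the 3 KO libraries.

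Gstm2 encodes a glutathione S-transferase of the mu class, which couples electrophiles to glutathione (chromosome 3, 107981702 to 107986453, minus strand). Its level was 4.48, 1.73, 2.40 and 8.36 CPM in Tg, 0.372, 0.240 and 0.235 CPM in KO, and 1.40, 1.78, 1.14 and 1.29 CPM in WT. The KO libraries, at 17, 8 and 7 counts, lay below every WT library, and Tg replicate 2 lay within the WT range. Gstm2 rose by 3.87 on the log2 scale in Tg against KO (SE 0.56, adjusted p = 0.00386), the largest rise of the 10 genes in that comparison, and kept this call without any 1 of the 11 libraries (3.31 to 4.14). Neither comparison with WT was called by edgeR, with log2 fold changes of -2.28 in KO (SE 0.53, adjusted p = 0.341) and 1.59 in Tg (SE 0.44, adjusted p = 0.0615). DESeq2 called both (adjusted p = 0.0121 and 0.0101).

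Gstm2 has close paralogues in the same cluster, so the letters that tell its reads from those of Gstm1 matter for the counts. The first 90 coding bases of both (from GENCODE M21 transcripts, GRCm38, minus strand of chromosome 3) are shown, with the 15 positions at which they differ in capitals:
Gstm2: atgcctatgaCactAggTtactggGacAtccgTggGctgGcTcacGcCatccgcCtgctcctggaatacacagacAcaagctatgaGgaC
Gstm1: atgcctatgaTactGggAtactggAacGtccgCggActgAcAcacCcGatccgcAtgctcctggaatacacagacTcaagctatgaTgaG
Over the 654 coding bases the pair was 85.9% identical, and the longest identical run that the Gstm2 coding sequence shared with a Gstm1 transcript was 60 bases, shorter than the 150-base reads. For the other members of the cluster this run was 17 (Gstm5) to 47 (Gstm4) bases. How the counting treated reads that align to several places is not given in the sources used here.

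Gstm1 rose in Tg against both other genotypes and was not called in KO against WT. It held 270.6, 255.2, 112.7 and 200.2 CPM in Tg, 74.0, 86.4 and 89.3 CPM in KO, and 77.4, 43.0, 62.0 and 98.0 CPM in WT. Gstm1 rose in Tg by 1.58 against WT (SE 0.28, adjusted p = 0.0146) and by 1.33 against KO (SE 0.31, adjusted p = 0.0313), while its log2 fold change in KO against WT was 0.25 (SE 0.30, adjusted p = 0.897). Gstm4, Gstm5 and Gstm7 were not called in any comparison, with log2 fold changes between -0.20 and 0.39. Gstm3 and Gstm6 did not pass the filter.

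Clu encodes clusterin, a secreted chaperone (chromosome 14, 65968483 to 65981547, plus strand). It held 10.8, 9.63, 12.3 and 34.7 CPM in Tg, 2.12, 1.32 and 2.05 CPM in KO and 3.75, 9.22, 2.98 and 4.31 CPM in WT. The genotypes did not overlap in any pair, with WT replicate 2 close below Tg replicate 2. Clu rose by 3.20 in Tg against KO (SE 0.55, adjusted p = 0.00937), or 9.18-fold. Without Tg replicate 4 the log2 fold change was 2.57 against KO and 1.10 against WT, and without KO replicate 2 the call was lost (adjusted p = 0.0517). Against WT the log2 fold change was 1.73 in Tg (SE 0.46, adjusted p = 0.0551) and -1.47 in KO (SE 0.52, adjusted p = 0.637).

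Sult1a1, a sulfotransferase of phenols (chromosome 7, 126672865 to 126676432, minus strand), held 4.38, 6.09, 6.99 and 13.6 CPM in Tg, 2.10, 1.41 and 1.58 CPM in KO and 5.37, 8.27, 3.20 and 4.60 CPM in WT. KO lay below all other libraries, and Tg and WT overlapped. Sult1a1 rose by 2.19 in Tg against KO (SE 0.42, adjusted p = 0.0156), a call lost without KO replicate 2 (adjusted p = 0.0758) and without KO replicate 3. Sult1a1 had a log2 fold change of -1.66 in KO against WT (SE 0.42, adjusted p = 0.384) and 0.53 in Tg against WT (SE 0.36, adjusted p = 0.430). DESeq2 called the difference between KO and WT (adjusted p = 0.0135). Its exons overlap those of Sgf29 on the other strand by 61 bases, and reads there cannot be assigned without strand, whose setting is not given.

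Cpne8 encodes a copine, a protein that binds membrane phospholipids when calcium is present (chromosome 15, 90487482 to 90679432, minus strand). It held 9.18, 5.83, 4.30 and 7.50 CPM in Tg, 0.656, 1.50 and 2.35 CPM in KO and 4.80, 3.84, 2.76 and 3.93 CPM in WT. All KO libraries were lower than all WT libraries, with KO replicate 3 and WT replicate 3 closest. Cpne8 rose by 2.17 in Tg against KO (SE 0.41, adjusted p = 0.0139), a call lost without KO replicate 2 (adjusted p = 0.0617). Neither comparison with WT passed, at -1.36 in KO against WT (SE 0.40, adjusted p = 0.529) and 0.81 in Tg against WT (SE 0.35, adjusted p = 0.207). The related copines Cpne1, Cpne2, Cpne3 and Cpne5 were not called. Their log2 fold changes in Tg against KO were 1.50 (SE 0.90), 0.36 (SE 0.10), 0.07 (SE 0.097) and 0.07 (SE 0.35), with at most 15 counts in any library for Cpne1.

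Aldh1a1, a retinaldehyde dehydrogenase (chromosome 19, 20492715 to 20643465, plus strand), turns vitamin A aldehyde into retinoic acid. It held 35.1, 32.1, 24.7 and 45.2 CPM in Tg, 15.6, 15.5 and 20.4 CPM in KO and 15.2, 25.9, 14.9 and 22.0 CPM in WT. KO and WT were intermingled, and WT replicate 2 lay above Tg replicate 3. Aldh1a1 rose by 0.999 on the log2 scale in Tg against KO (SE 0.24, adjusted p = 0.0354), but kept this call in only 5 of the 11 fits that left out 1 library (adjusted p up to 0.136, without KO replicate 2). Against WT the values were 0.81 in Tg (SE 0.22, adjusted p = 0.0551) and -0.18 in KO (SE 0.23, adjusted p = 0.902). Its neighbour Aldh1a7, 91.6% identical over 1503 coding bases with a longest shared run of 100 bases, held at most 3.36 CPM and was not called.

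Selp and Vwf encode P-selectin, which tethers leukocytes to activated platelets and vessel walls, and von Willebrand factor, which binds platelets to injured vessels. Vwf also marks stem cells that favour the platelet lineage. Selp (chromosome 1, 164115264 to 164150026, plus strand) held 142.7, 87.9, 81.8 and 66.8 CPM in Tg, 48.6, 30.3 and 30.2 CPM in KO and 41.0, 32.4, 102.4 and 56.3 CPM in WT. All Tg libraries lay above all KO libraries, while WT replicate 3 lay above 3 of the Tg libraries. No comparison was called by edgeR for Selp, with log2 fold changes of 1.38 in Tg against KO (SE 0.39, adjusted p = 0.0606), 0.71 in Tg against WT (SE 0.34, adjusted p = 0.259) and -0.67 in KO against WT (SE 0.38, adjusted p = 0.758). DESeq2 called Selp in Tg against KO (adjusted p = 0.0162). Leaving WT replicate 3 out gave a call for Selp in Tg against WT, at 1.13 (adjusted p = 0.0427).

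Vwf (chromosome 6, 125546774 to 125686679, plus strand) held 72.9, 69.1, 118.7 and 224.8 CPM in Tg, 52.7, 18.6 and 64.2 CPM in KO and 48.7, 148.2, 51.6 and 57.6 CPM in WT. Tg lay above KO in every library, and WT replicate 2 stood within the Tg range. Vwf was not called either, with log2 fold changes of 1.43 in Tg against KO (SE 0.56, adjusted p = 0.159), 0.66 in Tg against WT (SE 0.50, adjusted p = 0.477) and -0.76 in KO against WT (SE 0.54, adjusted p = 0.814). Both proteins belong to platelets and endothelium, so markers of those cells were read beside them. The summed level of 15 megakaryocyte and platelet genes was 315.0 to 488.6 CPM in Tg, 194.4 to 286.6 in KO and 268.6 to 402.3 in WT. It was highest in Tg replicate 4 and, within WT, in replicate 2, the same libraries as for Vwf. Mmrn1 alone held 208.2 CPM of the sum in Tg replicate 4, and the genes of the list did not all peak there. Rab27b held 31.1 CPM in Tg replicate 4 and 23.8 in Tg replicate 3, while Pf4 held 8.94 and 19.5. Of 13 tested, Itga2b and Nrgn rose in Tg against KO, where 2.63% of all genes tested were called higher, and none was called against WT. Of the 15 genes, 1 in Tg, 1 in KO and 2 in WT had at most 3 counts in every library of the genotype. The platelet receptor gene Gp6 stayed at or below 0.120 CPM. The endothelial cadherin gene Cdh5 lay at 0.100 to 0.689 CPM in Tg, 0.284 to 0.390 in KO and 0.317 to 1.32 in WT. The sum of 12 endothelial genes was 264.9 to 313.6 CPM in Tg, 246.5 to 279.4 in KO and 290.6 to 327.8 in WT. Of that sum, Pecam1 averaged 114.9 CPM in Tg, 121.3 in KO and 141.0 in WT, and Tie1 109.2, 56.9 and 77.9. By fold change, of 11 tested, 3 lay above WT in Tg and 8 below, and 6 above KO and 5 below. The part of such cells in Selp and Vwf was not tested. Sele, the endothelial paralogue of Selp, held at most 0.575 CPM and did not pass the filter.

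Neo1 and Nupr1 were not called by edgeR in any comparison. Neo1 encodes neogenin, a receptor for netrins and repulsive guidance molecules (chromosome 9, 58874687 to 59036441, minus strand). It held 5.28, 2.62, 4.40 and 9.83 CPM in Tg, 3.32, 0.991 and 1.74 CPM in KO and 5.08, 5.87, 5.17 and 6.47 CPM in WT. WT libraries were tightly grouped, all KO libraries lay below them and Tg libraries lay on both sides. Its log2 fold change was -1.47 in KO against WT (SE 0.46, adjusted p = 0.564), -0.03 in Tg against WT (SE 0.40, adjusted p = 0.976) and 1.44 in Tg against KO (SE 0.46, adjusted p = 0.0914), the last called by DESeq2 (adjusted p = 0.0142). Nupr1, a small nuclear protein induced by cell stress (chromosome 7, 126623249 to 126630861, minus strand), held 4.35, 2.00, 1.05 and 10.3 CPM in Tg, 1.09, 0.150 and 0.503 CPM in KO and 1.05, 0, 1.21 and 0.719 CPM in WT. WT replicate 2 had 0 counts, which allows up to 0.0922 CPM, and Tg replicate 3 lay within the ranges of KO and WT. For Nupr1 it was 2.57 in Tg against WT (SE 0.94, adjusted p = 0.139), 2.89 in Tg against KO (SE 1.06, adjusted p = 0.138) and -0.32 in KO against WT (SE 1.02, adjusted p = 0.973). Without Tg replicate 4 the values of Tg were 1.73 against WT and 2.06 against KO. Without KO replicate 1 those of Tg against KO and KO against WT were 3.76 and -1.19.

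**Figure D3:**
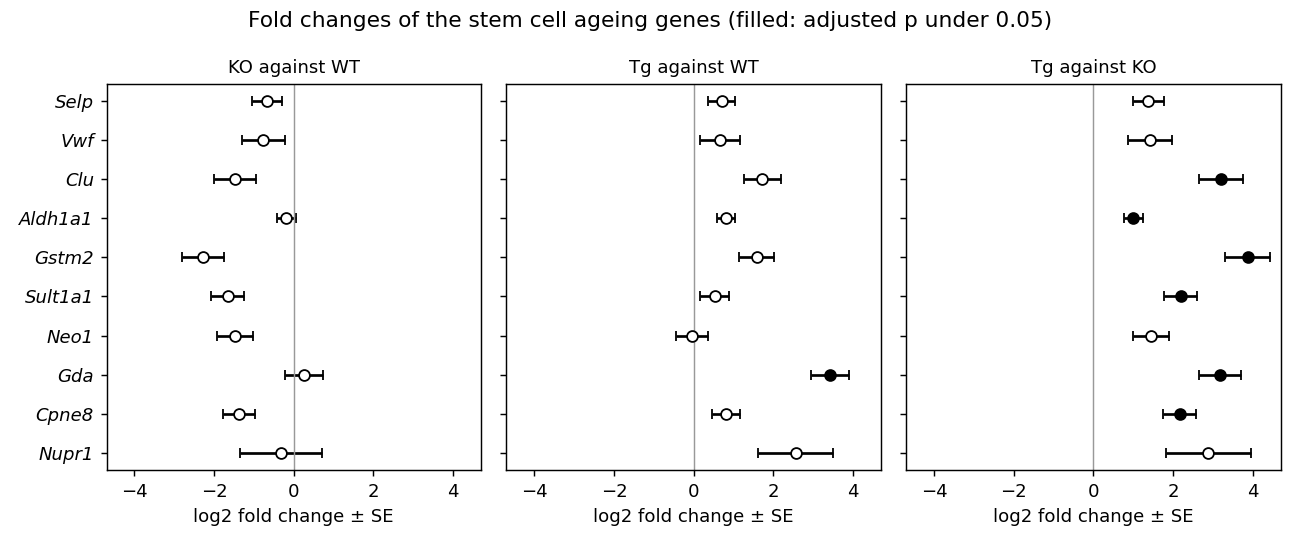
Log2 fold change (horizontal axes) with its SE of each gene in KO against WT, Tg against WT and Tg against KO; filled points have an adjusted p under 0.05 over all genes. In Tg against KO all 10 points lie right of 0 and 6 are filled, in Tg against WT 1 is filled (Gda), and in KO against WT none.

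Per kilobase of exon, Gda had the highest level of the 10 in Tg (35.1 ± 21.2 CPM per kb, SD, n = 4), followed by Selp (21.5 ± 7.51), and these levels overlapped. The length merged the exons of all annotated transcripts of a gene, 3 for Sult1a1 and up to 11 for Vwf. The ranks depend on that choice of length. In KO and WT Selp was highest, at 8.25 ± 2.40 and 13.1 ± 7.07 CPM per kb. Gda was the second in KO (3.90 ± 0.825) and the fifth in WT (3.27 ± 1.64). The lowest level per kb was that of Neo1 in Tg (0.635 ± 0.353), of Gstm2 in KO (0.168 ± 0.0462) and of Nupr1 in WT (0.296 ± 0.213).

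The genes did not peak in the same Tg library. Tg replicate 4 held the highest level of the 11 libraries for 7 genes (Vwf, Clu, Aldh1a1, Gstm2, Sult1a1, Neo1 and Nupr1), and Tg replicate 1 for the other 3 (Selp, Gda and Cpne8). A KO library held the lowest level for 7 genes and a WT library for 3 (Aldh1a1, Gda and Nupr1). Once each gene's genotype means were taken out, the 45 pairs had a median Pearson r of 0.17 over the 11 libraries, from -0.72 for Selp with Sult1a1 to 0.91 for Clu with Sult1a1. Vwf with Clu had an r of 0.90 and Gstm2 with Neo1 0.82. These values describe libraries that share depth and cell make-up, and carry no test.

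**Figure D4:**
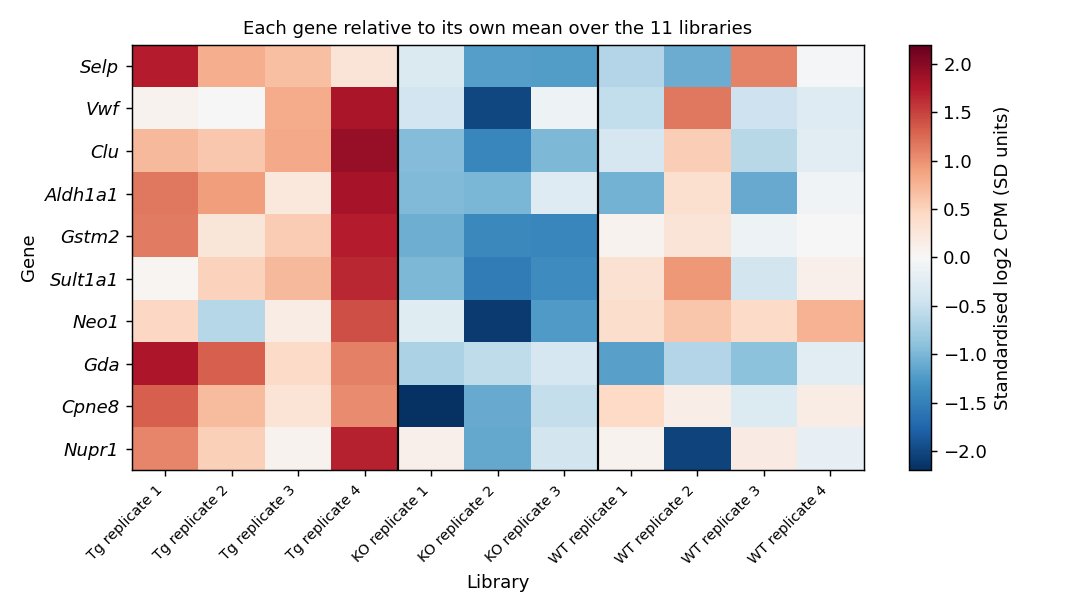
Log2 CPM of each gene (rows) in each library (columns, Tg, KO and WT from left to right), standardised to the gene's mean and SD over the 11 libraries (colour). Tg replicate 4 is highest for 7 genes and Tg replicate 1 for Selp, Gda and Cpne8.

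On the chromosomes, 2 pairs of the genes lie on the same one. Sult1a1 and Nupr1 are 42.0 kb apart on chromosome 7 with no annotated protein-coding gene between them, and Aldh1a1 and Gda are 747.8 kb apart on chromosome 19 with 3 protein-coding genes between (Aldh1a7, Tmc1 and Zfand5). The genes of each pair differed in their calls: Sult1a1 and not Nupr1 in Tg against KO, and Gda and not Aldh1a1 in Tg against WT, differences that were not tested as such.

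Promoters were searched for 6 short motifs on both strands in the 250 bases before the start, for the 8 genes with an entry in RefSeq's table (GRCm38.p6, 9 promoters). The motif of GATA factors was searched as AGATAA, that of ETS factors as CCGGAA and that of RUNX factors as TGTGGT. The E-box was searched as CACGTG, the AP-1 motif as TGA, any base, then TCA, and the antioxidant response element as TGAC, any 3 bases, then GC. An AP-1 match can overlap an antioxidant response match. The matches are shown with the motif in capitals, since they are all that was found:
Selp, chr1:164115115-164115141, plus strand: tgtccaggcaTGATTCAcacctgcgcc
Aldh1a1, chr19:20492516-20492542, plus strand: aaatgtcatcTGACTCAgtggggaaac
Aldh1a1, chr19:20601926-20601951, plus strand: tagtgcatgcAGATAAaaaggagcaa
Nupr1, chr7:126625680-126625705, minus strand: gagagctttcCACGTGgaaaaacaca
Among the 9 promoters, only the Aldh1a1 promoter with the AP-1 match had first bases after its start that stood in no GENCODE M21 transcript of its gene. No motif was shared by more than 2 of the 8 genes. Of all 32851 promoters of the table, 6.75% held the AP-1 motif, 9.99% the GATA motif and 6.02% the E-box. The ETS motif stood in 12% of them, the RUNX motif in 14.0% and the antioxidant response element in 10.2%, and none of these stood in the 9 promoters of the ageing genes.

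Another 32 genes described as higher in old stem cells were read in the same fit. Of these, 27 lay above KO in Tg (median log2 fold change 1.10, against 0.01 over all genes). Of the 32, 6 rose (Dsg2, Clec1a, Perp, Ghr, Enpp5 and Itgb3), where 2.63% of all genes tested were called higher. Dsg2, a desmosomal cadherin, held 5.53, 3.78, 5.61 and 9.53 CPM in Tg and 1.16, 0.510 and 0.905 CPM in KO, and rose by 2.82 (SE 0.41, adjusted p = 0.00420). Clec1a, a C-type lectin receptor, rose by 1.40 in Tg against KO (SE 0.28, adjusted p = 0.0169) and by 1.04 against WT (SE 0.25, adjusted p = 0.0375). Perp, a membrane protein of desmosomes and a p53 target, rose by 1.88 against KO (SE 0.38, adjusted p = 0.0194) and Ghr, the growth hormone receptor, by 1.12 (SE 0.26, adjusted p = 0.0337).

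Against WT, 25 of the 32 lay above in Tg (median 0.64) and 2 rose, Clec1a and Ptprk, a receptor phosphatase (1.40, SE 0.34, adjusted p = 0.0419). There 2.54% of all genes tested were called higher. Itgb3, the integrin beta 3 chain, had a log2 fold change of 1.04 (SE 0.29, adjusted p = 0.0674) and Ghr 0.88 (SE 0.24, adjusted p = 0.0602). In KO against WT 24 of 32 lay below (median -0.47) and edgeR called 0, with 3 at an unadjusted p under 0.05, all lower: Dsg2 (-1.66, SE 0.40), Perp (-1.34, SE 0.38) and Plscr2 (-1.42, SE 0.62). Of all genes tested, 3.75% lay lower in KO at that unadjusted p, and 0.0233% were called in either direction. Not all of the list moved the same way. Cd38, Fyb, Gem, Mt2 and Ehd3 had log2 fold changes below 0 in Tg against KO (Mt2 -0.99, SE 0.46), and Osmr held 0, 0, 2.43 and 9.46 CPM in Tg, so that its level there came from replicates 3 and 4.

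**Figure D5:**
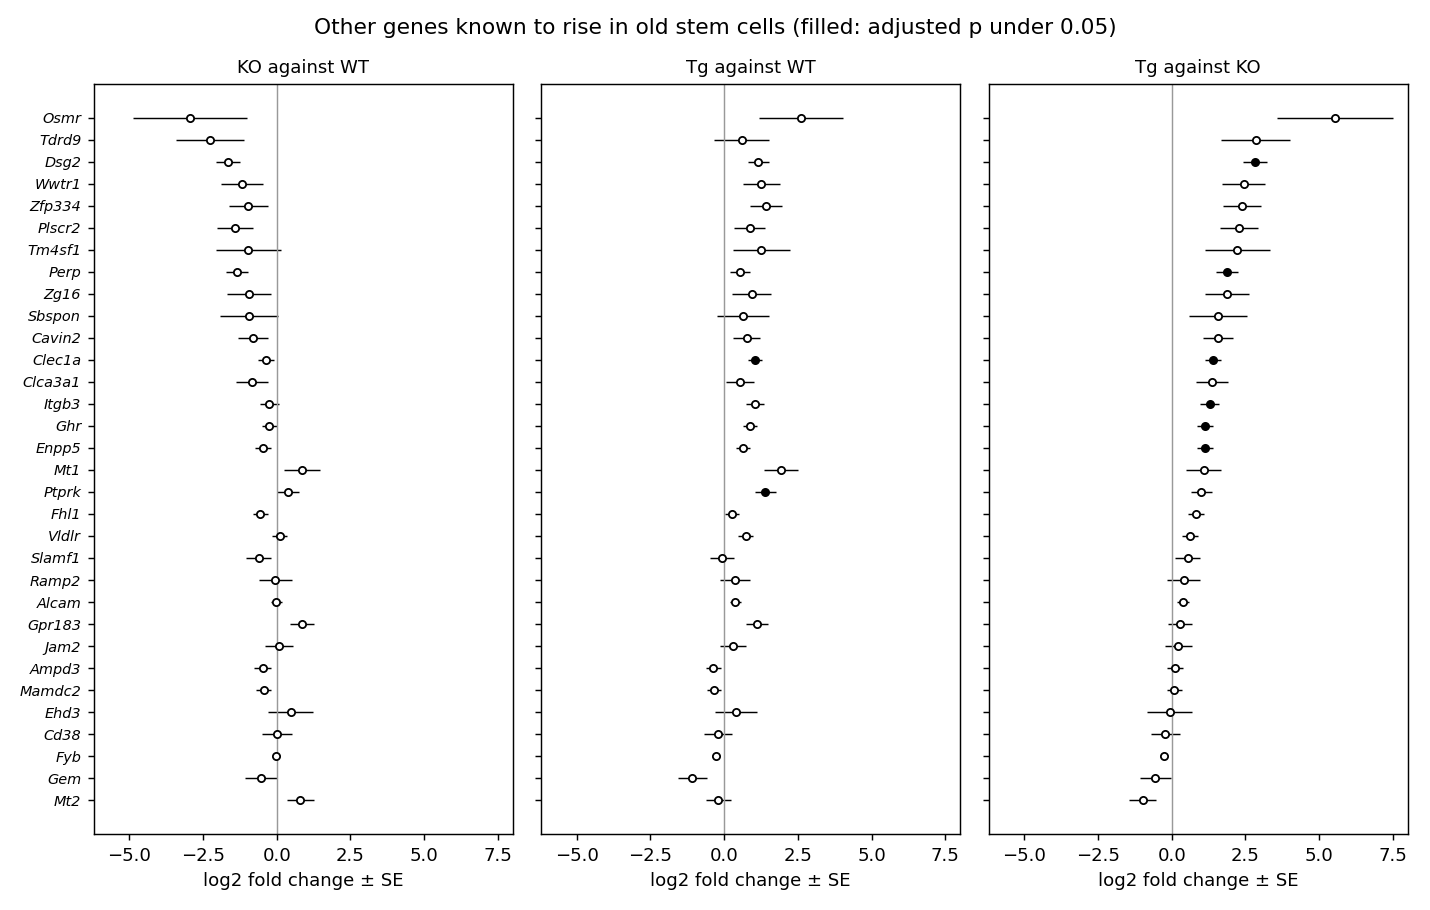
Log2 fold change (horizontal axes) with its SE of 32 other genes described as higher in old stem cells, ordered by the value in Tg against KO; filled points have an adjusted p under 0.05 over all genes. Of the 32, 27 lie right of 0 in Tg against KO, 25 in Tg against WT and 8 in KO against WT.

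The genes most like Gda, Gstm2 and the mean of the 10 were listed by Pearson r of log2 CPM over the 11 libraries, out of 10292 genes that averaged 5 CPM or more. For Gda they included Atrn, Cask, App and Ncam1 (r 0.98 to 0.99, and 0.92 to 0.97 once genotype means were taken out). For Gstm2 they were Fgfr1, Dcaf12l1, Trim62, Phf6 and Csgalnact1 (r 0.93 to 0.96, and 0.54 to 0.79 without genotype means). Phf6 itself was the fourth, but its level differs between the genotypes by design. Without genotype means its r of 0.54 was the lowest of these 5. For the mean of the 10 they were Ube2d2a, Eogt, Cdcp1, Itprid2 and Dcaf12l1 (r 0.94 to 0.95, and 0.55 to 0.84 without genotype means). Libraries of a genotype cluster, so these values describe likeness and carry no test.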

How the data were processed

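RNA of LSK cells was read as paired 150-base reads in 11 libraries, each labelled as 1 mouse. The deposited values are raw read counts by gene symbol, with no scaling by the authors. Per the submitters' processing notes the tools were FastQC, Trimmomatic, STAR and HTSeq and the build was mm10. The sources used here do not give their versions, the annotation, the strand setting or any filter. Of the 55291 symbols, 17183 passed filterByExpr. Columns were matched to samples by title. All 11 libraries were fitted with edgeR 4.0.16 under R 4.3.3 (TMM factors, 1 mean per genotype, no covariate, quasi-likelihood test), with the SE as the log2 fold change over the root of F. Symbols were placed on GRCm38, the assembly behind mm10, with GENCODE M21. Pearson r and per-kilobase levels used these CPM. Alternatives included DESeq2 1.42.0 and limma-voom (limma 3.58.1). A self-test on simulated counts preceded the fit. Figures used matplotlib 3.10.9. The 10 genes, the other lists and the motifs were chosen with earlier results of these data known. The genes named were the 10, Phf6, tested paralogues, sex-linked checks, the 5 genes most like Gda, Gstm2 or the mean of the 10, and, of other lists, those called or up to 4 of lowest p; some genes that this rule names are not reported here. Osmr, the 5 other ageing genes below 0 in Tg against KO and the untested markers were named after their values were seen. So were genes named for their share of a summed level. The main fit did not pair libraries by replicate number, since the labels do not say that it pairs mice.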

Additional observations from a re-analysis of the deposited data

Results flagged for a closer look

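In groups of 4, a value was marked when its gap to the nearest other library, as a share of the range, passed Dixon's critical value for 4 libraries, which chance does in about 1 in 20 groups. Of 20 groups (10 genes in Tg and in WT) 2 were marked. Clu in Tg replicate 4 was at 34.7 CPM, with the other Tg libraries at 9.63 to 12.3 CPM. Without it the log2 fold change of Clu was 2.57 against KO and 1.10 against WT. Vwf in WT replicate 2 was at 148.2 CPM, with the other WT libraries at 48.7 to 57.6 CPM. Without it the log2 fold change of Vwf was 1.21 in Tg against WT and -0.22 in KO against WT.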

How the results depend on the processing

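Of the 10 genes, the number called in KO against WT was 0 in edgeR and 2 with DESeq2. In Tg against WT it was 1 (Gda), 4 with DESeq2, 3 with no filter on low counts, 0 without the libraries that held both Xist and Y-linked reads (1 WT library left, assumed to vary like the other groups), and 1 to 3 over the fits that left out 1 library. It was 2 without Tg replicate 2, WT replicate 2 or WT replicate 3 and 3 without Tg replicate 3. In Tg against KO it was 6, 3 with the replicate block (Clu, Gstm2 and Gda), 2 with the Y-linked level as a covariate, 8 with DESeq2, and 2 to 7 over the fits that left out 1 library, the lowest without KO replicate 2. Same-numbered libraries deviated together by r of -0.25 to 0.10. Groups this small cannot settle whether the number pairs libraries, and the labels do not say. The block changed no call of the 10 genes in the other comparisons.

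Directions reversed for values that were not called. Without the Xist and Y-linked libraries the log2 fold change was 0.28 for Aldh1a1 in KO against WT, and -0.11 for Selp and 0.11 for Neo1 in Tg against WT. Nupr1 in KO against WT was 0.60 with limma-voom and -1.19 to 0.12 over fits without 1 library, and Neo1 in Tg against WT was -0.46 to 0.20 over such fits. In all, 638 of the single-gene values under an alternative kept direction and call, 21 lost a call, 19 gained one and 9 reversed. The cause was not tested. Over all genes, calls in Tg against WT were 436 higher and 410 lower in edgeR, 942 and 970 with DESeq2, 118 and 103 with the block, and 9 and 11 without the Xist and Y-linked libraries. In KO against WT they were 1 and 3, and 51 and 47 with DESeq2. In Tg against KO they were 452 and 526, 963 and 959 with DESeq2, 124 and 179 with the block, and 248 and 288 with the covariate. Depth limits Nupr1 and Gstm2 most, with 5 to 50 and 7 to 17 counts in KO libraries.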

Other observations

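Stem cell identity genes, read as a list of 20 of which 19 were tested, gave 2 calls in Tg against KO, 1 in Tg against WT and 0 in KO against WT by edgeR (5 there at an unadjusted p under 0.05, all lower). Of all genes tested, 2.63% were called higher and 3.06% lower in Tg against KO, and 2.54% higher in Tg against WT. In KO against WT 0.0233% were called in either direction, and 3.75% lay lower at an unadjusted p under 0.05. Esam, an endothelial and stem cell adhesion molecule, held 46.7, 31.4, 42.2 and 28.5 CPM in Tg, 16.9, 19.1 and 15.1 CPM in KO and 25.1, 18.6, 25.6 and 20.1 CPM in WT. It rose by 1.13 in Tg against KO (SE 0.19, adjusted p = 0.00797) and by 0.73 against WT (SE 0.17, adjusted p = 0.0345). Procr, a surface marker of stem cells, rose by 1.02 in Tg against KO (SE 0.26, adjusted p = 0.0413). Among 11 endothelial genes tested, Tie1 rose by 0.94 against KO (SE 0.11, adjusted p = 0.00155), while Stab2 (-4.08, SE 0.63) and Egfl7 (-0.64, SE 0.16) fell.

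In Tg against WT, where 2.39% of all genes were called lower and 2.54% higher, 3 of 9 tested macrophage genes, 1 of 10 B cell genes, 3 of 10 T and NK cell genes and 2 of 10 erythroid genes fell, while 1 T and NK cell gene and 2 of 10 mature neutrophil genes rose. All 10 B cell genes and all 10 erythroid genes had log2 fold changes below 0 in that comparison, with medians of -2.78 and -1.86.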
